A study of Drosophila melanogaster with 16 samples.

Results

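The genes described here encode the antimicrobial and Bomanin immune peptides of Drosophila melanogaster: the Bomanins, the Daisho peptides, Metchnikowin, Drosomycin and its paralogs, the Diptericins, Attacins, Cecropins, Defensin and Drosocin. They were measured by RNA sequencing in heads of adults aged 10 to 12 days, in 4 groups of 4 libraries each. Translating ribosome affinity purification (TRAP) recovers mRNA bound to ribosomes that carry the GFP-tagged subunit RpL10A, here made in the cells where fru P1-Gal4 is active, and total mRNA is the head lysate before the pull-down. Both fractions were taken from each sex. Flies of all 4 groups carried w (w/w in females, w/Y in males), fru P1-Gal4/+, 1 copy of P[w+mC, UAS-GFP::RpL10A] and, on its homologue, P[w+mC, UAS-Gal4], so no group lacks the tag or the driver. The driver follows the fru P1 promoter, whose transcripts in the head are known from neurons, and the labels give pools of about 1000 flies without saying whether this number is per library. The flies were not described as infected, and the labels give no immune challenge.

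Members were the 34 genes of these families, all of which were present in the count files, out of 17753 genes. Of these, 29 were reported because an exon entry stood above 1 CPM (the read count of an entry scaled to the library total) in at least 4 of the 16 libraries, a rule that 9930 genes of the series met. The members were thus chosen by a measured level, and the families were proposed with earlier results of these data known, among them TRAP decreases of BomS6, BomS5, Drsl4, Mtk and Dso2. The TRAP against total mRNA values are given as a description for this reason, and are not independent evidence of a direction. Just inside the rule stood BomT1 and AttD, each above 1 CPM in 7 libraries, and just outside stood CecB, above 1 CPM in 3 libraries. Drsl1, Drsl2, Drsl3 and Drsl6 passed in no library. Over all 16 libraries Drsl3 had 0 counts, Drsl1 1 count, Drsl6 18 and Drsl2 57. A count of 0 allows up to 3 counts, which corresponds to 0.118 to 0.195 CPM depending on the library, and expression below these levels was not detectable at this depth.

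In the fly, recognition of bacterial peptidoglycan and fungal cell walls starts the Toll and Imd pathways, which end in the NF-kappaB factors Dif, Dorsal and Relish and switch on peptide genes. The fat body, which in the head lies around the brain, is the main source of these secreted peptides, and hemocytes and barrier epithelia also make them. Drosomycin, the Bomanins and the Daisho peptides are known as Toll outputs, whereas the Diptericins, Attacins, Cecropins and Drosocin are known mainly as Imd outputs, and Metchnikowin responds to both.

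Most members lie in tandem clusters (dm6 coordinates of the counted exons). Of the Bomanin genes, 10 lie within 9.24 kb at chr2R:18381393-18390629, and BomBc3 and BomT3 lie on chromosome 3R at chr3R:22085374-22088501. Drs and its 6 paralogs span chr3L:3314349-3369942, the 4 Cecropin genes chr3R:30210874-30216938, and Dro, AttA and AttB chr2R:14745961-14750165. All 69 exon entries of the members matched an exon of the same gene in the annotation. Counting did not use strand, and 6 entries overlap another gene: the BomS4 and BomBc2 entries overlap each other, and entries of Mtk, DptB, AttC and Def overlap Stacl, CG43109, CG4744 and magu. Reads shared by near-identical copies (AttA and AttB, CecA1 and CecA2) were not counted, since only uniquely mapped reads were, and the values of these genes are uncertain.

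Each gene is given by its exon entry with the highest mean over the 16 libraries, as CPM after scaling with TMM factors. Library totals were 15353672 to 25419045 counts, and Spearman correlations between libraries of a group lay between 0.890 and 0.974 over all exon entries that passed the expression filter. Neuron markers rose in TRAP (10 of 11 in males, where 38.2% of all genes were called higher, and 11 of 11 in females, where 52.3% were), whereas all glia markers tested fell (9 of 9 and 8 of 8). Fat body markers fell in 7 of 10 (males) and 10 of 10 (females), with a median of -0.78 and -1.61 on the log2 scale. Of all genes, 30.5% were called lower in males and 31.4% in females. In bulk samples, fewer cells of a type and less RNA per cell cannot be told apart.

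The peptide mRNAs were far less abundant in TRAP than in total mRNA in both sexes. Summed over the 29 genes, they reached 1594 ± 352 CPM in male total mRNA and 232 ± 61.9 CPM in male TRAP, and 2832 ± 787 CPM in female total mRNA and 379 ± 131 CPM in female TRAP (SD, n = 4 each). All 22 members that passed the expression filter in males fell in TRAP, where 30.5% of all genes tested were called lower, and all 26 tested in females fell, where 31.4% of all genes were. An exon was called at a false discovery rate (FDR) under 0.2 in the exact test of edgeR. Of the 26 in females, BomBc1, CecA1, CecC and Def passed the expression filter mainly through total mRNA libraries. The median change of the members was -2.87 on the log2 scale in males (7.29-fold lower) and -2.85 in females (7.20-fold lower), beside medians of 0.14 and 0.33 over all genes tested. With library totals in place of TMM factors the medians over all genes were 0.44 and 0.73 and those of the members -2.59 and -2.43, and relative to all genes the members lay at -3.01 and -3.18 with TMM factors and at -3.02 and -3.17 with library totals. Of the single exon entries, 47 of 47 tested fell in males and 56 of 56 in females.

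**Figure D1:**
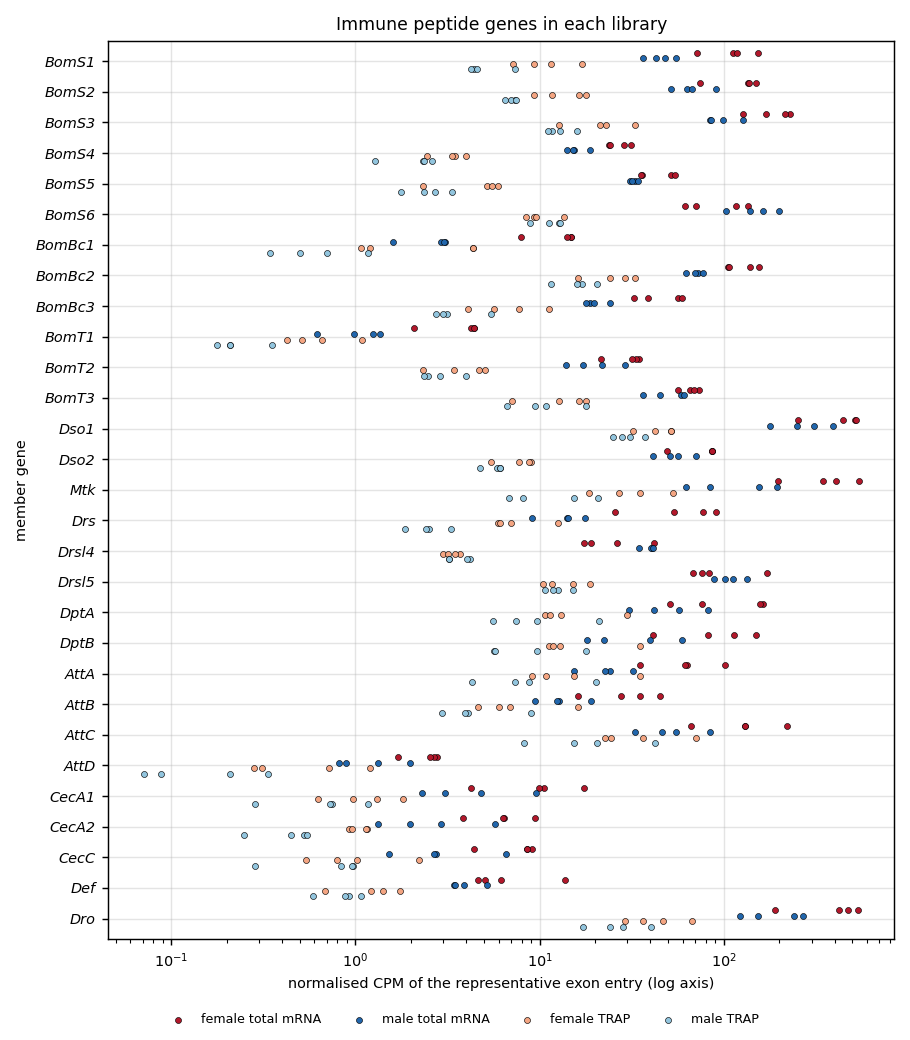
Each row is a member gene and each point a library, as normalised CPM on a log axis, coloured by sex and fraction. TRAP libraries lie to the left of the total mRNA libraries of the same sex in all 29 rows by their means, and overlap them in AttA and AttC in both sexes and in AttB in females. The share of all genes without overlap was not computed. Members below the expression filter met the level rule mainly through total mRNA libraries, so their direction is a description only.

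Ordered by level per kilobase of the exon entry used for each gene, Dso1 was first in every group. It had 3095 ± 898 CPM per kb in female total mRNA and 217 ± 37.1 CPM per kb in male TRAP (SD, n = 4). The order depends on the entry used. Other Dso1 entries, of 627 and 278 bases, had 617 and 1382 CPM per kb in female total mRNA, below Mtk. In male TRAP they had 41.6 and 92.7 CPM per kb, below BomS6 at 104. A BomS3 entry of 183 bases had 1007 CPM per kb in female total mRNA, where the entry used had 434. In female total mRNA, Mtk (1391 ± 531 CPM per kb), BomS6 (874 ± 323), Dso2 (625 ± 149) and Dro (538 ± 201) came next. In male total mRNA BomS6 (1373 ± 375) came before Mtk (463 ± 230). In female total mRNA the SD of Mtk exceeds its distance to BomS6, and the SDs of Dso2 and Dro exceed the distance between them. AttC stood at rank 12 of 29 in female total mRNA and at rank 4 in female TRAP, and at ranks 15 and 5 in males. AttD was last in all 4 groups, at 0.334 to 4.62 CPM per kb.

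The short Bomanins (BomS), small secreted peptides made of little more than the Bomanin motif, fell in TRAP in 6 of 6 genes in each sex, with changes between -3.72 and -2.90 in males and between -3.23 and -2.93 in females on the log2 scale. BomS3 stood at 128, 84.7, 85.2 and 99.5 CPM in male total mRNA (replicates 1 to 4) and at 11.7, 12.9, 11.1 and 16 CPM in male TRAP (replicates 1, 2, 4 and 5). In females BomS3 had 171, 229, 215 and 127 CPM in total mRNA and 12.8, 32.9, 23.0 and 21.3 CPM in TRAP (replicates 2 to 5 in both), the order used for all genes. No TRAP library of either sex came near the total mRNA libraries of that sex, and the change of BomS3 was -2.94 ± 0.20 in males and -2.94 ± 0.26 in females (log2, SE, FDR 7.39e-38 and 6.88e-25). BomS6, which lies on the opposite strand at the end of the cluster, had the most negative change of all members in males, -3.72 ± 0.23 (13.2-fold lower, FDR 6.02e-47). Its levels were 201, 162, 102 and 138 CPM in male total mRNA and 12.7, 12.9, 8.89 and 11.2 CPM in male TRAP. In females BomS6 had 117, 61.6, 135 and 70.8 CPM in total mRNA and 9.29, 8.46, 13.7 and 9.53 CPM in TRAP, a change of -3.13 ± 0.26.

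The bicipital Bomanins (BomBc), which carry a pair of Bomanin motifs joined by a linker, and the tailed Bomanins (BomT), which carry a C-terminal extension, fell in all 4 genes tested in males and all 5 tested in females, with changes of -2.80 to -2.11 and -2.86 to -2.14. BomBc2 was at 72.4, 69.5, 77.0 and 62.3 CPM in male total mRNA and 17.0, 16.1, 11.6 and 20.6 CPM in male TRAP, a change of -2.11 ± 0.20. In females BomBc2 was at 105, 139, 155 and 106 CPM in total mRNA and 16.2, 33.1, 29.0 and 24.0 CPM in TRAP, a change of -2.20 ± 0.21. The fractions did not overlap in either sex. BomT3 had 36.3, 58.3, 60.6 and 45.1 CPM in male total mRNA and 9.46, 10.8, 6.68 and 17.9 CPM in male TRAP (-2.17 ± 0.27), and 56.6, 73.9, 65.7 and 69.3 against 7.05, 17.9, 12.8 and 16.4 CPM in females (-2.20 ± 0.23). Its highest male TRAP library was replicate 5, which stayed below every total mRNA library. BomBc3 and BomT2 changed by -2.50 and -2.80 in males and by -2.60 and -2.86 in females. BomT1 passed the filter in neither sex and stood at or under 0.352 CPM in male TRAP against 0.623 to 1.37 CPM in male total mRNA.

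The Daisho peptides, small Toll-induced peptides with a known role against filamentous fungi, are encoded by a pair of divergent genes, both of which fell in TRAP in both sexes. Dso1, the member with the highest level per kb of the entry used, had 394, 249.6, 179 and 309 CPM in male total mRNA and 28.1, 37.2, 31.2 and 25.0 CPM in male TRAP. In females its levels were 514, 446, 522 and 252 CPM in total mRNA and 32.4, 51.6, 51.9 and 42.4 CPM in TRAP. The 2 fractions were far apart in both sexes, and Dso1 changed by -3.21 ± 0.25 in males and -3.18 ± 0.24 in females, whereas Dso2 changed by -3.25 ± 0.20 and -3.21 ± 0.21.

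Metchnikowin, a proline-rich peptide active against fungi and bacteria, had the most negative change in females. Mtk levels were 346, 540.4, 408 and 198 CPM in female total mRNA and 18.6, 52.9, 35.1 and 27.1 CPM in female TRAP. In males Mtk had 155, 62.7, 83.7 and 195 CPM in total mRNA and 8.09, 6.85, 15.4 and 20.7 CPM in TRAP. Male total mRNA replicates 2 and 3 were low and replicates 1 and 4 high, and the fractions did not overlap in either sex. The change was -3.37 ± 0.34 in females (10.3-fold lower, FDR 6.50e-21) and -3.27 ± 0.38 in males (9.67-fold lower, FDR 1.52e-15).

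Drosomycin, the main antifungal output of Toll, stood at 35.6 ± 9.01 CPM per kb in male and 159.7 ± 74.3 CPM per kb in female total mRNA, beside 300.0 ± 53.2 and 274 ± 132 CPM per kb for its paralog Drsl5 (SD, n = 4). Drs stood at 17.6, 9.13, 14.1 and 14.3 CPM in male total mRNA and 2.51, 1.86, 2.42 and 3.31 CPM in male TRAP. In females Drs stood at 91.3, 76.9, 53.4 and 25.6 CPM in total mRNA and 7.01, 12.6, 5.98 and 6.07 CPM in TRAP. The fractions were separate in both sexes, with a change of -2.45 ± 0.24 in males and -2.84 ± 0.36 in females. Drsl5, a paralog of Drosomycin, had 134, 112, 88.7 and 102 CPM in male total mRNA and 10.8, 12.7, 11.8 and 15.2 CPM in male TRAP (-3.11 ± 0.20). Its female levels were 171, 67.8, 83.1 and 76.6 CPM in total mRNA and 18.8, 10.4, 11.7 and 15.1 CPM in TRAP (-2.71 ± 0.30). Drsl4 had 41.0, 40.4, 34.6 and 41.4 CPM in male total mRNA and 3.21, 4.21, 4.05 and 3.23 CPM in male TRAP, and 42.0, 17.5, 26.5 and 19.0 against 3.72, 2.98, 3.19 and 3.46 CPM in females. Drsl4 changed by -3.41 ± 0.19 in males and -2.85 ± 0.27 in females, and its TRAP libraries all lay at or below 4.21 CPM.

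The peptides known mainly as Imd outputs fell as well, with the smallest changes in the Attacins. DptA, a Diptericin active against Gram-negative bacteria, had 57.3, 30.5, 41.9 and 82.0 CPM in male total mRNA and 7.48, 5.60, 9.66 and 21.2 CPM in male TRAP (-2.27 ± 0.36). In females DptA had 164, 158, 76.5 and 51.0 CPM in total mRNA and 10.7, 29.9, 13.0 and 11.3 CPM in TRAP (-2.67 ± 0.41). Male TRAP replicate 5 and female TRAP replicate 3 stood apart from the other TRAP libraries of their groups, and the fractions still did not overlap. AttC, an Attacin of the same antibacterial class, had 54.8, 33.1, 46.2 and 84.4 CPM in male total mRNA and 15.4, 8.24, 20.6 and 42.4 CPM in male TRAP. In females AttC had 131, 222, 131 and 66.4 CPM in total mRNA and 22.8, 70.5, 36.3 and 24.4 CPM in TRAP. The fractions overlapped in both sexes, through those same TRAP libraries: the change was -1.33 ± 0.37 in males (FDR 0.00153) and -1.72 ± 0.38 in females (FDR 2.30e-05). Without male TRAP replicate 5 the male change of AttC was -1.89, and without female TRAP replicate 3 the female change was -2.23. AttA and AttB changed by -1.21 and -1.43 in males and by -1.78 and -1.75 in females.

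Drosocin, a proline-rich antibacterial peptide, had 241, 122, 153 and 270.2 CPM in male total mRNA and 24.0, 17.3, 28.3 and 40.0 CPM in male TRAP (-2.84 ± 0.29). Its levels in females were 472, 538, 422 and 189.9 CPM in total mRNA and 29.2, 66.9, 47.1 and 36.6 CPM in TRAP (-3.06 ± 0.32). The gene has 2 counted entries that start at the same base and share nearly all reads. The Cecropins, helical peptides that permeabilise bacterial membranes, and Defensin, active against Gram-positive bacteria, were near the lower limit of the test. CecA1 had 17.3, 10.5, 9.88 and 4.25 CPM in female total mRNA and 0.968, 1.82, 1.31 and 0.624 CPM in female TRAP (-3.03 ± 0.40). In males CecA1 had 4.83, 3.07, 2.30 and 9.63 CPM in total mRNA and 0.748, 0.286, 0.727 and 1.17 CPM in TRAP, where it did not pass the filter. Def had 13.7, 5.07, 6.18 and 4.64 CPM in female total mRNA and 1.74, 1.22, 0.683 and 1.42 CPM in female TRAP (-2.41 ± 0.38). Male Def levels were 5.22, 3.43, 3.49 and 3.90 CPM in total mRNA and 0.924, 1.07, 0.588 and 0.880 CPM in TRAP, with no overlap. In the 7 members that did not pass the filter in males and the 3 in females, every TRAP library lay below every total mRNA library. The share of all genes with this pattern was not computed. These members met the level rule mainly through total mRNA libraries, so this is a description and carries no test. In females BomBc1, CecA1, CecC and Def passed the expression filter mainly through total mRNA libraries as well, so their female changes are also a description.

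**Figure D2:**
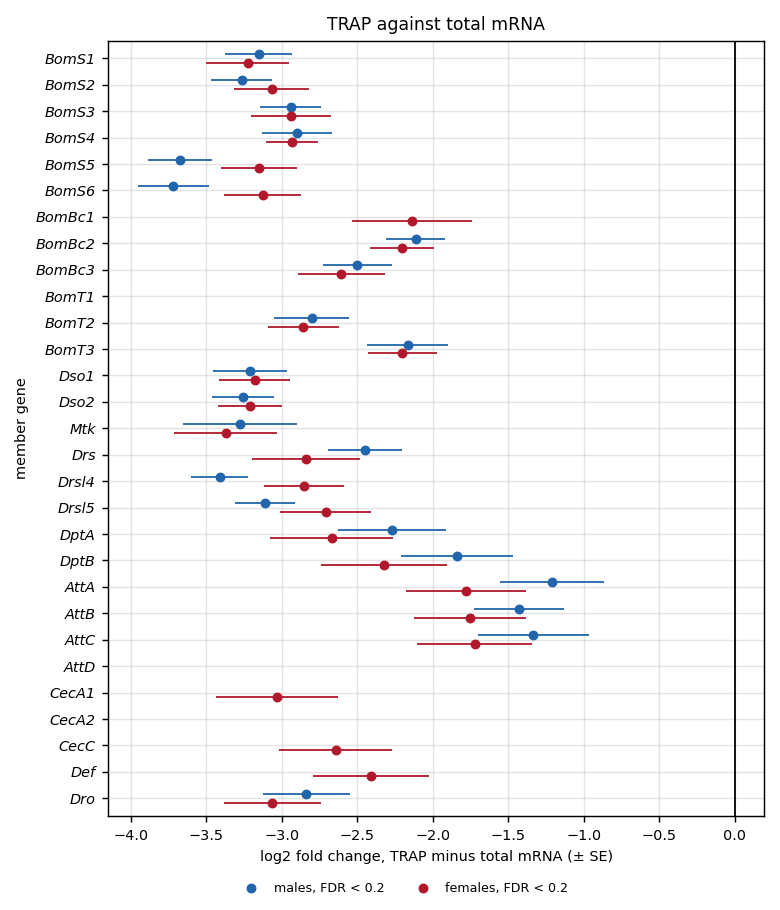
Points give the log2 fold change of TRAP minus total mRNA for each member tested, in males and females, and bars give the SE of the quasi-likelihood fit. All points lie left of 0, from -3.72 (BomS6, males) to -1.21 (AttA, males).

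Genes of the pathways upstream were compared in the same fits, as lists chosen with earlier results known. Of all genes tested, 30.5% were called lower and 38.2% higher in male TRAP, and 31.4% lower and 52.3% higher in female TRAP. Of 19 Toll pathway genes, from recognition proteins to the transcription factors, 14 fell and 1 rose in male TRAP (median -1.26), and 14 fell and 3 rose in female TRAP (median -1.39). PGRP-SA, a peptidoglycan receptor, changed by -1.97 ± 0.28 in females, Hayan, a serine protease upstream of Toll, by -1.74 ± 0.29 in males, and SPE, the protease that cleaves the Toll ligand, by -1.72 ± 0.23 in males and -1.80 ± 0.21 in females, while Dif, a Toll-activated factor, rose by 0.63 in males and 0.43 in females. Of the Imd pathway genes tested, 11 of 16 fell and 1 rose in males (median -1.21), and 13 of 17 fell and 3 rose in females (median -1.23). PGRP-LF, a membrane protein that dampens the pathway, changed by -1.75 ± 0.26 in males, PGRP-SC2, an amidase, by -2.25 ± 0.37 and pirk, another negative regulator, by -2.07 ± 0.19 in females, and Diap2, a ubiquitin ligase of the pathway, rose by 0.80 and 0.81. Other immune-induced effectors fell in 11 of 11 and 13 of 13 genes tested, with a median of -1.87 in both sexes, from TotC, a stress-induced Turandot gene (-2.47 ± 0.27 in males), and IBIN (-3.13 ± 0.29 in females) to Tep4, a thioester protein (-0.61 ± 0.23 and -0.84 ± 0.21). Hemocyte markers fell in 8 of 9 and 10 of 11, and the remaining one, Pxn, rose by 1.13 ± 0.17 in males and 1.14 ± 0.20 in females. Their summed level lay at 122 to 149 CPM in male TRAP, 161 to 187 CPM in male total mRNA, 99.0 to 167 CPM in female TRAP and 204 to 283 CPM in female total mRNA. Without Pxn, taken out after its values were seen, the sums were 52.8 to 92.6, 128 to 157, 47.5 to 96.6 and 184 to 247 CPM in the same order. Fat body markers other than the yolk proteins, which were set aside after the values were seen, summed to 978 to 1653 CPM in male TRAP, 2096 to 2893 CPM in male total mRNA, 895 to 1393 CPM in female TRAP and 2450 to 3020 CPM in female total mRNA. None of these fat body or hemocyte markers was at 0 throughout a group, and their part in the peptide values was not tested.

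**Figure D3:**
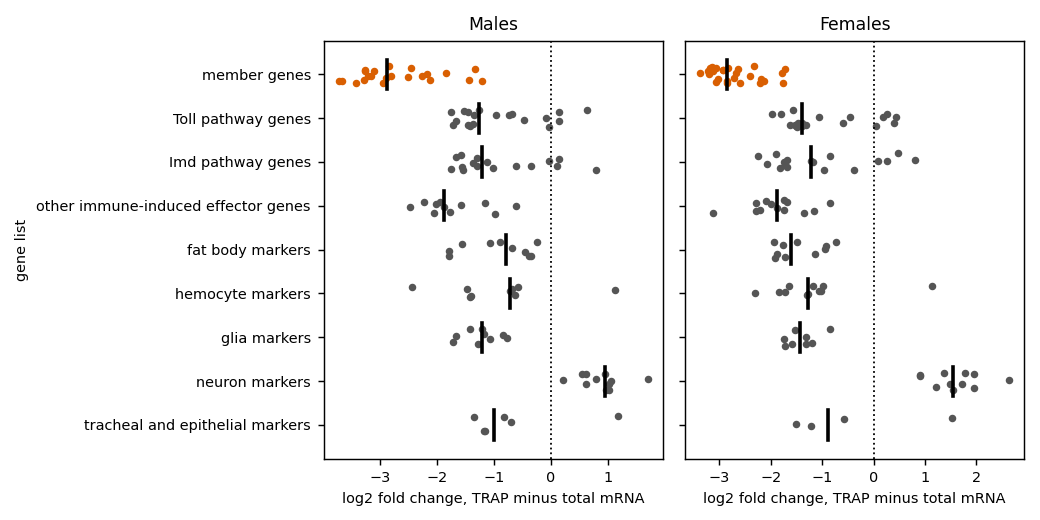
Each point is a gene, placed by its log2 fold change of TRAP minus total mRNA in males (left) and females (right), with the black line at the median of each list. The member genes have medians of -2.87 and -2.85, the other immune-induced effectors -1.87 in both, and the neuron markers 0.95 and 1.55.

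Between the sexes, most peptide mRNAs were less abundant in male than in female heads. In total mRNA, 23 of 27 members tested were lower in males, where 10.8% of all genes were called lower, and 2 were higher, where 13.5% of all genes were called higher. The median difference, male minus female, was -0.99 on the log2 scale (1.98-fold lower in males), beside 0.10 over all genes. In 9 of the 27, all called lower, every male library lay below every female library, as in 10.6% of all genes tested. With library totals as the scaling in place of TMM factors the median over all genes was 0.39 and that of the members -0.68, and the members lay 1.07 to 1.08 below the median of all genes under both. Without male total mRNA replicate 2, 15 members were lower. Each total mRNA library enters this comparison and the TRAP comparison of its sex, so the results share libraries.

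BomBc1 differed most. It had 2.91, 1.60, 3.05 and 3.03 CPM in male total mRNA and 14.8, 14.8, 14.1 and 7.98 CPM in female total mRNA, a difference of -2.23 ± 0.25 (4.70-fold lower in males, FDR 1.42e-14). All male libraries lay below all female ones. Drs, with the levels above, was 4.31-fold lower in males (-2.11 ± 0.32, FDR 3.23e-08), Mtk 2.89-fold lower (-1.53 ± 0.35, FDR 0.000617) and AttA 2.67-fold lower (-1.42 ± 0.28, FDR 8.51e-05), each without overlap. BomS1 had 54.9, 36.3, 43.0 and 48.2 CPM in male and 112, 153, 118 and 71.8 CPM in female total mRNA, 2.40-fold lower in males without overlap (-1.26 ± 0.20, FDR 1.31e-06). AttC (-1.27 ± 0.33), Dro (-0.99 ± 0.30) and BomS3 (-0.85 ± 0.19) were called lower although the libraries of the sexes overlapped, through female replicate 5. Of the 25 calls in total mRNA, 10 were lost when at least 1 of the 8 libraries was left out: those of Dso1, Dso2, BomS5, BomS6, BomT2, Drsl4, DptA, CecA1, CecA2 and Def. Dso1 (-0.56 ± 0.25, FDR 0.167) was not called without male replicates 2, 3 or 4 or female replicates 2, 3 or 4 (FDR 0.218 to 0.400), CecA1 (-1.02 ± 0.43, FDR 0.124) without male replicates 2 or 3 or female replicates 2, 3 or 4 (FDR 0.218 to 0.432), Def (-0.83 ± 0.31) without male replicate 2 (FDR 0.260) or female replicate 2 (FDR 0.467), and DptA (-1.03 ± 0.36) without male replicate 2 (FDR 0.206) or female replicates 2 or 3 (FDR 0.212 and 0.210). BomT3 (-0.35 ± 0.18, FDR 0.265) and Drsl5 (0.18 ± 0.26, FDR 0.743) did not pass the threshold.

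Some genes of the other lists also differed between the sexes in total mRNA, where 10.8% of all genes were called lower in males and 13.5% higher. Toll pathway genes were lower in males in 10 of 19 and higher in 0 (PGRP-SA, -1.09 ± 0.24), Imd pathway genes lower in 4 and higher in 1 of 18 (PGRP-SC2, -1.26 ± 0.31), and other effectors lower in 9 and higher in 2 of 15, the latter TotX (2.37 ± 0.17) and TotA (0.99 ± 0.18). Fat body markers were lower in males in 7 of 10, including the yolk protein gene Yp1 (-7.44 ± 0.84), and higher in 2 (to, 2.95 ± 0.16, and Lsd-1, 0.75 ± 0.15), and hemocyte markers were lower in 8 of 11. Neuron markers went the other way, higher in males in 9 of 11 and lower in 0 (median 0.55). Glia markers were higher in 2 and lower in 1 of 9, and tracheal and epithelial markers were called in 0 of 6. The part of all these lists in the sex differences of the peptides was not tested.

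BomS6 and Drsl4 went the other way in total mRNA. BomS6 was 1.63-fold higher in males (0.70 ± 0.25, FDR 0.0707) and Drsl4 1.56-fold higher (0.64 ± 0.23, FDR 0.0788), and the libraries of the sexes overlapped in both. Both calls were lost without female total mRNA replicate 3 (FDR 0.262 and 0.285), and that of Drsl4 also without female replicate 5 (FDR 0.205). Ratios within a library do not depend on the scaling. The ratio of BomS6 to BomS3 was 1.2 to 1.92 in male total mRNA and 0.269 to 0.684 in female total mRNA, and 0.702 to 1.09 in male TRAP and 0.257 to 0.725 in female TRAP. The ratio of Drsl5 to Drs was 6.28 to 12.3 in male total mRNA and 0.881 to 2.99 in female total mRNA, and 4.30 to 6.83 and 0.825 to 2.69 in TRAP of the same sexes. Of 7 ratios computed, the male and female ranges in total mRNA did not overlap in 3, these and Drsl4 to Drs, and overlapped in 4. BomS6 to BomS5 was among the latter, at 2.98 to 6.05 in male and 1.18 to 3.24 in female total mRNA, and the ratio of Dso1 to Dso2 was 4.31 to 5.57 in male and 5.10 to 6.04 in female total mRNA. These ratios were chosen after the levels were seen and carry no test.

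In TRAP, 6 of 22 members tested were lower in males and 0 were higher, beside 1.68% of all genes called lower. The 6 were BomS1, BomS2, BomS3, BomBc3, Mtk and Drs, the median difference was -0.70 and 20 of 22 lay below 0. Drs was 3.08-fold lower in males (-1.62 ± 0.30, FDR 0.000173) and BomS2 1.90-fold lower (FDR 0.0116), both without overlap. Mtk (-1.35 ± 0.37, FDR 0.0376) and BomS1 (-1.10 ± 0.28, FDR 0.0279) overlapped between the sexes, with BomS1 at 4.40, 4.57, 4.22 and 7.33 CPM in male TRAP and 7.16, 17.1, 11.6 and 9.36 CPM in female TRAP. BomS3 (-0.76 ± 0.25, FDR 0.175) was not called when 1 library was left out, for each of male TRAP replicates 1, 2 or 4 or female TRAP replicates 3, 4 or 5 (FDR 0.30 to 0.507). BomBc3 (FDR 0.198) was lost in 6 of 8 such fits, and the other 4 calls were kept in all 8. The count of members called was 14 without male TRAP replicate 5, 10 without female TRAP replicate 2 and 2 with the quasi-likelihood test, and the median was -0.32 without female TRAP replicate 3. BomS6 (0.21 ± 0.19) and Drsl4 (0.17 ± 0.20) did not pass the threshold here.

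**Figure D4:**
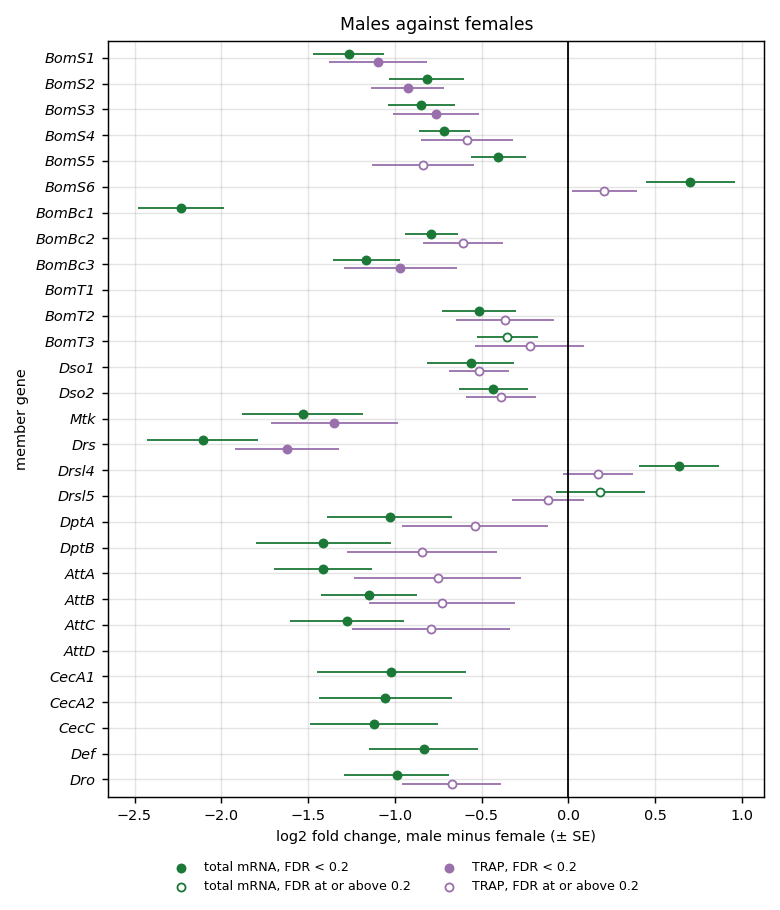
Log2 fold change of males minus females for each member tested, in total mRNA and in TRAP, with bars for the SE of the quasi-likelihood fit and filled points for FDR under 0.2. In total mRNA 23 members are called left of 0 and BomS6 and Drsl4 right of it, and in TRAP 6 are called left of 0.

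The TRAP effect itself was not shown to differ between the sexes. In the edgeR quasi-likelihood test of the interaction over all 16 libraries, 0 of 22 members tested were called, 0 had an unadjusted p under 0.05, and DESeq2 and the fit with the replicate number as a block each called 0, while 0.131% of all genes were called in either direction. The differences, males minus females in TRAP minus total mRNA, ran from -0.49 ± 0.35 (BomS6) to 0.69 ± 0.60 (AttA). The SE of these differences, between 0.29 and 0.63, limits what could be detected.

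Many members shared the library in which they were lowest or highest. Female total mRNA replicate 5 was the lowest of its group in 23 of 29 members, and its summed level was 1682 CPM against 3045 to 3462 CPM in the other 3 libraries. Female TRAP replicate 2 was lowest in 20 members and replicate 3 highest in 19, male TRAP replicate 5 was highest in 20, and male total mRNA replicate 2 was lowest in 15. By summed level, however, the lowest male total mRNA library was replicate 3, at 1257 CPM against 1327 CPM in replicate 2. Members of 1 cluster did not always follow each other. In female total mRNA, replicate 3 was the highest library for AttC, Mtk and BomS3 and the lowest for BomS6, Drsl4 and Drsl5. The summed fat body markers other than yolk proteins were also lowest in female total mRNA replicate 5 (2450 against 2809 to 3020 CPM), female TRAP replicate 2 (895 against 1313 to 1393 CPM) and male total mRNA replicate 2 (2096 against 2313 to 2893 CPM), and highest in male TRAP replicate 5 (1653 against 978 to 1159 CPM). Female TRAP replicate 3, highest in 19 members, was not the highest in these markers (1313 CPM, below 1341 and 1393 CPM in replicates 4 and 5). The ratio of first to second exon, over 16 members with 2 exons, was 0.516 in female total mRNA replicate 5 against 0.573 to 0.639 in the rest of its group, and 0.542 in male TRAP replicate 5 against 0.603 to 0.665. It was also low in male total mRNA replicate 3 (0.522, in a group that reached 0.667), which was lowest in 10 members, and high in female TRAP replicate 2 (0.636 against 0.547 to 0.556). The part of fat body content and of RNA quality in these orders was not tested.

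**Figure D5:**
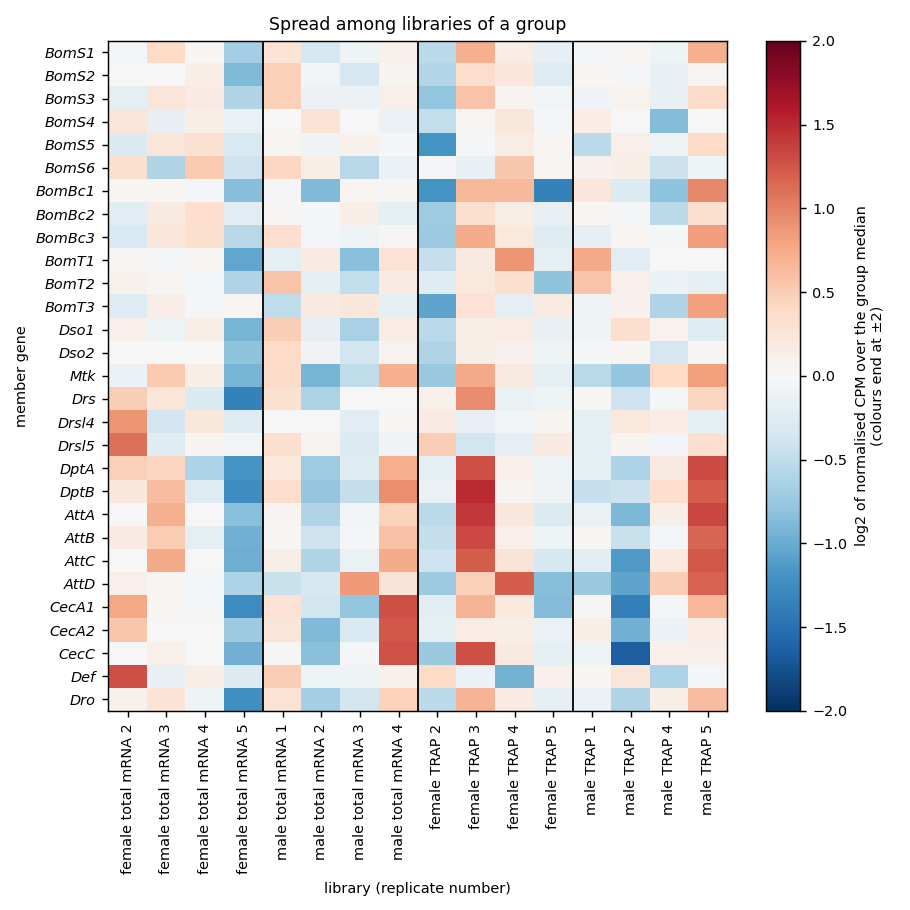
Rows are member genes and columns libraries, with colour for the log2 of a library's normalised CPM over the median of its group. Female total mRNA replicate 5 is below its group median in most rows, and DptA, DptB, AttA, AttB and AttC are highest in female TRAP replicate 3 and male TRAP replicate 5.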

How the data were processed

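Libraries were poly(A)-selected and prepared with a non-directional kit. Per the labels, the authors aligned reads with STAR 2.7.2a, used SAMtools 1.2 and ran featureCounts on uniquely mapped reads, exon by exon, and the deposited values used here are raw counts per exon entry. A deposited table of the same values as RPM was not used. Exons above 2 CPM in at least 60% of the 8 libraries compared were kept. Scaling used TMM factors, and the test was edgeR's exact test (edgeR 4.0.16, R 4.3.3), with Benjamini-Hochberg adjustment over all exons and a threshold of FDR under 0.2, after the methods of the study. The interaction used the quasi-likelihood test of edgeR over 16 libraries, and all SE come from quasi-likelihood fits. Scripts were tested on simulated data. DESeq2 1.42.0, other scalings, filters, gene-level sums, a replicate block and leaving out each library were alternatives. Library totals of 15353672 to 25419045 counts set the precision, and intervals and floors cover counting error only. Samples were grouped by sex and fraction from the labels. The study describes its libraries as biological replicates, and the labels do not name the cultures they came from.

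Same-numbered female TRAP and total mRNA libraries deviated together (r = 0.243 to 0.563), so these numbers were taken as possible pairs. Unlike-numbered female libraries gave r from -0.474 to 0.387. Female TRAP replicate 3 had a higher r with total mRNA replicate 2 (0.387) than with replicate 3 (0.243), so the pairing is not settled by these values. All values, SE and FDR of the report, the interaction included, come from fits without the replicate block, after the study, and the blocked fits are alternatives.

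The members and lists were chosen with earlier results of these data known. Values of every library are given for the most abundant reported member of each family and then for members called between the sexes, up to 14, and BomS6 and Drsl4 were added after their values were seen. Pathway genes named are drawn from the 2 most negative and the 2 highest called changes of their list in either sex with a mean of at least 5 CPM in the higher group, and not all of these are named. Sequences were not used here.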

Additional observations from a re-analysis of the deposited data

Results flagged for a closer look

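In groups of 4 libraries, 13 of 116 combinations of member and group held a library far from the other 3, where chance gives about 1 in 20. Members of a group share the same 4 libraries, so the combinations are not independent, and the excess was not tested. In female total mRNA replicate 5, BomBc1 stood at 7.98 CPM (others 14.1 to 14.8), BomT1 at 2.09 (4.25 to 4.42), Dso2 at 49.4 (85.9 to 86.4) and CecC at 4.38 (8.51 to 9.15). In female total mRNA replicate 2, Drsl5 was at 171 CPM (others 67.8 to 83.1) and Def at 13.7 (4.64 to 6.18). In female TRAP replicate 3, Drs was at 12.6 CPM (others 5.98 to 7.01), DptA at 29.9 (10.7 to 13.0) and DptB at 35.0 (11.3 to 13.0). In male TRAP replicate 5, BomS1 was at 7.33 CPM (others 4.22 to 4.57) and BomBc3 at 5.45 (2.73 to 3.14). In male total mRNA, BomBc1 was at 1.60 CPM in replicate 2 (others 2.91 to 3.05) and Drsl4 at 34.6 CPM in replicate 3 (others 40.4 to 41.4).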

How the results depend on the processing

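In TRAP against total mRNA, the named members stayed called lower in each alternative in which they were tested, and 21 to 29 members were called lower in males and 22 to 29 in females. In females CecA1, CecC and Def could be tested in only 3 of the 8 fits that left out 1 library, so their calls were little examined. The female median was -2.43 with library totals as the only scaling, and the replicate block changed no call there. In male against female TRAP (6 members lower), 2 were lower with the quasi-likelihood test, 2 with the replicate block and 13 with no filter on low counts, and leaving out 1 library gave 4 to 14, with a median of -0.94 to -0.32. In male against female total mRNA (23 lower, 2 higher), FDR under 0.05 left 15 lower and 0 higher, leaving out 1 library gave 15 to 23 lower and 0 to 3 higher, and the replicate block moved the median to -1.36. The cause of these changes was not tested. In the replicate block, a library without a same-numbered partner adds nothing to the comparison. Between the sexes these were male replicate 1 and female replicate 5 in total mRNA, and male replicate 1 and female replicate 3 in TRAP. Between the fractions in males they were TRAP replicate 5 and total mRNA replicate 3. The blocked fits of these comparisons therefore rest on fewer libraries than the main fits. Same-numbered libraries of the sex comparisons and of male TRAP against total mRNA had r from -0.274 to 0.224 and were not taken as pairs. The labels do not say whether same-numbered libraries share a sample, and these few correlations cannot settle it. No result reversed. Under the alternatives, 742 single-gene calls held and 43 were lost, all in the sex comparisons. This tally takes each alternative separately and covers only the members whose values are given for every library. Other members, among them Dso2, BomS5 and BomT2, whose calls in total mRNA were lost in some fits, are not in it. A level rule of 2 CPM would have reported 27 members. The promoter motif search was not run. Low members such as BomT1 and AttD are limited by depth.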
